A study of Mus musculus with 8 samples.

Results

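The genes described here mark the blood-derived cells that live in or pass through the liver: Kupffer cells, monocytes, neutrophils, dendritic cells, and T, B and natural killer (NK) lymphocytes. The list held 45 mouse genes, given by symbol and sorted into 10 lineages or roles. A gene was measured where at least 1 probe set of the array was annotated to that gene and to no other, and the brightest such probe set by the mean over 8 arrays was used. This gave 44 of the 45 genes, among 22180 genes measured in all, and each of the 44 had a single probe set. The remaining gene, Cd74, the invariant chain of MHC class II, shared its probe set with a microRNA gene and was left out of every count.

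Kupffer cells are the resident macrophages of the liver. They sit in the sinusoids, the wide capillaries between plates of hepatocytes, and take up microbes, dying cells and worn red cells through scavenger, lectin and complement receptors. Lymphocytes, monocytes and neutrophils are carried through the same sinusoids in blood, and NK cells are part of the resident pool of lymphocytes in mouse liver.

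The samples were livers of 3-month-old mice kept on normal chow, with 4 arrays per group. The knockout group (NCOR_KO) received AAV, a viral vector, carrying Cre recombinase by vein. Cre cuts out DNA between its target sites, here in the floxed gene of NCOR, a corepressor recruited by nuclear receptors. The control group (WT) received AAV carrying GFP. The labels call the controls wild-type, although the design describes floxed mice for either virus. Livers were frozen 2 weeks after injection, at 5 pm, 10 hours into the light-dark cycle (ZT10). The sources used here do not give sex, strain, virus dose or the promoter driving Cre, so which liver cells lost NCOR is not known here. Since the virus differed with the group, an effect of Cre cannot be told apart from the loss of NCOR. Titles call the replicates biological, but none ties an array to an animal, and p-values then measure the spread between these samples. Ncor1 itself was not analysed here.

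RNA was read on single-colour Affymetrix Mouse Gene 2.0 arrays, and every value below is a log2 intensity of the deposited table, or a difference of such values, knockout minus control. Median intensity over probe sets lay between 41.0 and 44.1 on the 8 arrays, and the number of arrays limits the precision. The 9 hepatocyte markers measured had mean log2 levels of 11.18 to 13.52, and the limma test called 0 of them, with 0 at an unadjusted p under 0.05. Of the 44 immune genes, 22 had a mean log2 level below 5.88, the median over all genes, among them every T cell, B cell, dendritic cell and neutrophil gene measured. The brightness of a probe set also depends on its probes, so levels are not compared between genes. In whole liver RNA, fewer cells of a type and less RNA per cell cannot be told apart.

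WT replicate 2 and NCOR_KO replicate 1 stood apart from the other arrays in the macrophage genes. WT replicate 2 was the lowest control array for all 13 Kupffer cell and pan-macrophage genes, and NCOR_KO replicate 1 was the lowest knockout array for the same 13. Over all genes, WT replicate 2 was the lowest control array for 36.7% and NCOR_KO replicate 1 the lowest knockout array for 26.8%. The share with that pair of lowest arrays was 11.6%, and 15.6% in the brighter genes, those whose mean level reached the median. The 13 of 13 also held after centring each array on its median, where the share over all genes was 6.08%, and after quantile normalization, where it was 9.51%. The differences of the 13 genes are given with and without these arrays, and so are those of several further genes that were lowest in both.

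Cd79a and Cd3e, both subunits of lymphocyte antigen receptors, were higher in knockout liver, and 42 of the 44 immune genes did not pass the test. The test was limma on all genes with a Benjamini-Hochberg adjusted p under 0.05, and it called 1.65% of all genes, 0.816% of them as higher and 0.834% as lower. No immune gene was called lower. The median difference over the 44 genes was 0.09, beside 0.01 over all genes, and 31 of 44 differences were above 0, beside 52% of all genes. With arrays centred on their medians the 2 medians were 0.05 and -0.04. The differences ran from -0.30 for Cd4 to 0.50 for Cd79b. At an unadjusted p under 0.05 there were 4 of the 44, or 9.09%, beside 15.9% of all genes.

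**Figure D1:**
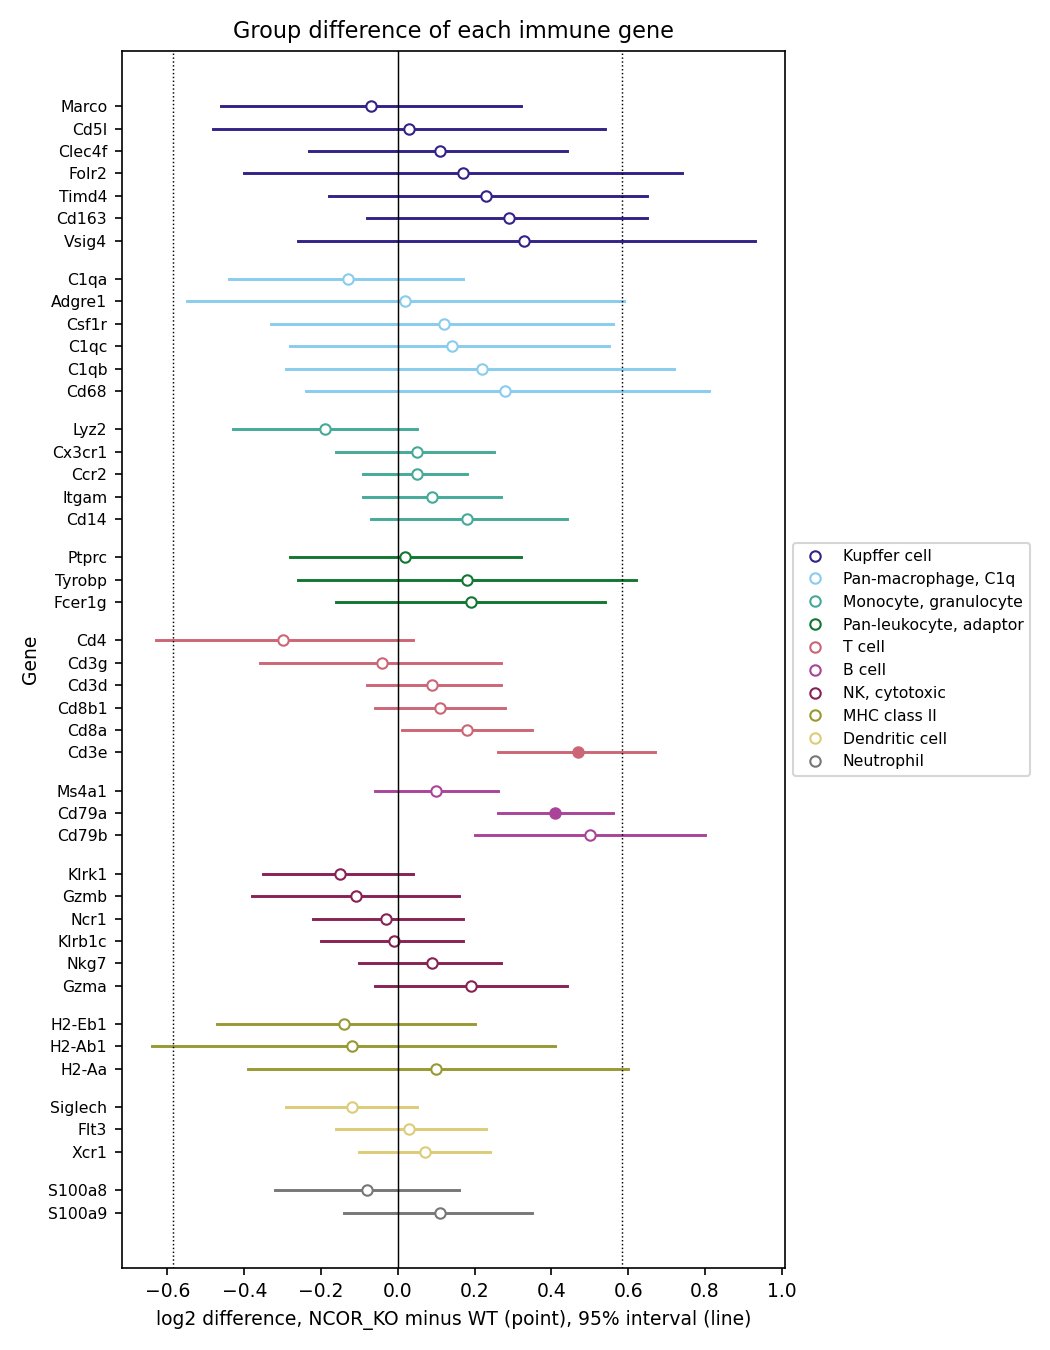
Group difference of each of the 44 immune genes, as log2 intensity in NCOR_KO minus WT (4 arrays each), on the horizontal axis; points are limma estimates, lines their 95% intervals, filled points passed the adjusted threshold, and dotted lines mark 1.5-fold. Only Cd3e and Cd79a are filled, and the widest interval is that of Vsig4, from -0.26 to 0.93.

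None of the 7 Kupffer cell genes passed the test. Vsig4, the complement receptor with which Kupffer cells take up opsonised particles, had the largest difference and the largest spread of the 7. Its log2 intensities were 10.13, 9.14, 10.39 and 10.06 in WT replicates 1 to 4 and 9.62, 10.46, 10.37 and 10.58 in NCOR_KO replicates 1 to 4. WT replicate 2 and NCOR_KO replicate 1 were low, and the other 6 arrays of both groups overlapped. The group means were 9.93 ± 0.55 and 10.26 ± 0.43 (SD, n = 4), a difference of 0.33 ± 0.27 (SE), with a limma adjusted p of 0.588. The pooled SD inside the groups, 0.49, was larger than the difference.

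The other Kupffer cell genes showed the same pair of low arrays. Timd4, a phosphatidylserine receptor for dying cells, was 7.62, 6.68, 7.57 and 7.52 in the control arrays and 7.34, 7.68, 7.62 and 7.69 in the knockout arrays. Without its lowest array the control group spanned only 7.52 to 7.62, inside the knockout range. Cd163, the scavenger receptor for haemoglobin bound to haptoglobin, was 8.32, 7.54, 8.09 and 8.10 in controls and 7.95, 8.44, 8.45 and 8.36 in knockouts. Its difference of 0.29 ± 0.16 (SE) was the closest to its pooled SD, also 0.29, among the 13 macrophage genes (limma adjusted p = 0.429).

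Clec4f, the C-type lectin that marks Kupffer cells in mice, was 9.33, 8.83, 9.47 and 9.14 in controls and 8.93, 9.38, 9.39 and 9.51 in knockouts. The groups overlapped over most of their range, and the difference was 0.11, with a 95% interval from -0.23 to 0.44. Cd5l, a secreted scavenger-domain protein that supports macrophage survival, differed by 0.03 with an interval of -0.48 to 0.54. Folr2, the macrophage folate receptor, differed by 0.17, with an interval of -0.40 to 0.74. Marco, a scavenger receptor for bacteria, was the exception in its order of arrays: its highest value was 6.87 in WT replicate 4, beside 5.83 to 6.25 in the other control arrays and 6.09 to 6.40 in the knockout arrays. It was also the single Kupffer cell gene with a difference below 0 (-0.07). The sign of the Cd5l difference turned to -0.02 when arrays were centred on their medians.

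The pan-macrophage genes followed the Kupffer cell genes array by array, and none of the 6 passed. Adgre1 encodes F4/80, the surface receptor by which mouse macrophages are usually recognised. It read 8.25, 7.46, 8.45 and 8.30 in controls and 7.39, 8.36, 8.36 and 8.42 in knockouts. The low array of each group lay far below the rest, and the other 6 arrays lay between 8.25 and 8.45. The group difference was 0.02 ± 0.26 (SE, limma adjusted p = 0.982), and it was -0.03 after median centring, while the pooled SD was 0.47. Cd68, a lysosomal glycoprotein of phagocytes, was 8.24, 7.27, 8.27 and 7.94 in controls and 7.64, 8.35, 8.30 and 8.56 in knockouts. Its difference, 0.28 ± 0.24 (SE), was the largest of the 6 and smaller than its pooled SD of 0.43 (limma adjusted p = 0.599).

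Csf1r is the receptor for the macrophage growth factors CSF1 and IL-34. Its control values were 9.05, 8.11, 8.97 and 8.73, its knockout values 8.44, 8.84, 8.95 and 9.09, and the difference was 0.12. C1qa, C1qb and C1qc encode the chains of complement C1q, which macrophages secrete, and they are neighbouring genes. They differed by -0.13, 0.22 and 0.14, so the 3 chains of 1 protein complex did not share a sign, and each difference was below its pooled SD (0.24, 0.42 and 0.34). C1qb, for example, was 9.74, 9.02, 10.01 and 9.56 in controls and 9.21, 10.01, 9.83 and 10.14 in knockouts.

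The promoters of 3 of the 13 macrophage genes are shown, all 3 of them holding the core marked below. Each is the 250 bases before the transcription start in RefSeq's GRCm38.p6, on the gene's strand. Capitals mark GAGGAA, a core recognised by PU.1, the ETS-family factor required for macrophages, or TTCCTC, the same core on the opposite strand. Vsig4 lies at chrX:96293439-96293688 (minus strand), C1qb at chr4:136886201-136886450 (minus strand) and C1qc at chr4:136892915-136893164 (minus strand).
Vsig4: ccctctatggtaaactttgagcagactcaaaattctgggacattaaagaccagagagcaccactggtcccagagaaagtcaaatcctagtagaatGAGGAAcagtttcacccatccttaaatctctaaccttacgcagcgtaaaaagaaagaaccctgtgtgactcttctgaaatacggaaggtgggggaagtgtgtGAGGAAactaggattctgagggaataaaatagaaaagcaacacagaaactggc
C1qb: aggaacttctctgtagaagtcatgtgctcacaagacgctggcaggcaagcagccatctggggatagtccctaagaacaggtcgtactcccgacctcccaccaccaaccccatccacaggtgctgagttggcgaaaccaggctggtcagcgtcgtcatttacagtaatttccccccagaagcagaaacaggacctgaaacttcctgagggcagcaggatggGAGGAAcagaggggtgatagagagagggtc
C1qc: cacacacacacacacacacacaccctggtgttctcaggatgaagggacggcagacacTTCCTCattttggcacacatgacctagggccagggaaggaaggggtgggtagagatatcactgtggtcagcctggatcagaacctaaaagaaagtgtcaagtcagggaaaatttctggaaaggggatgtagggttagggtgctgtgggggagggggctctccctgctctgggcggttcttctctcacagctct
Vsig4 held 2 matches and C1qb and C1qc 1 each. Among the 10 macrophage genes with a RefSeq promoter, 6 held the core on either strand (Cd5l, Vsig4, Marco, Cd68, C1qb and C1qc), as did 14 of the 34 immune genes with one and 23.3% of 32851 promoters of the same length. A match is a description of letters, not a bound site, and a part of PU.1 in the array pattern was not tested.

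Inside the groups, the spread of the macrophage genes was far above that of most genes, and no group difference exceeded it. The pooled SD of the 13 genes had a median of 0.36 and ran from 0.24 (C1qa) to 0.49 (Vsig4), beside a median of 0.11 over all genes. Between 94.2% and 99.7% of all genes had a smaller pooled SD than a given one of the 13. In 0 of the 13 was the difference larger than the pooled SD, whereas 36.8% of all genes were past that mark. The limma test called 0 of the 13, and 0 had an unadjusted p under 0.05. Their differences had a median of 0.14 and 11 of 13 were above 0 (9 of 13 after median centring). The 95% interval lay inside 1.5-fold either way for 6 of the 13, and for 95.5% of all genes. For the remaining 7 it reached 1.5-fold on the upper side alone, with lower ends from -0.55 (Adgre1) to -0.08 (Cd163). For these 7 a rise of 1.5-fold could not be told from 0 with these arrays.

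The low values were sizeable. WT replicate 2 lay below the mean of the other control arrays by 0.48 (Clec4f) to 1.05 (Vsig4), with a median gap of 0.81, or 1.75-fold. NCOR_KO replicate 1 lay below the other knockout arrays by 0.17 (Marco) to 0.99 (Adgre1), with a median gap of 0.51, or 1.43-fold. At the upper end, NCOR_KO replicate 4 was the highest knockout array for 11 of the 13 genes and WT replicate 3 the highest control array for 9.

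The single differences moved with the arrays kept. Without WT replicate 2 they were 0.07 for Vsig4, 0.01 for Timd4, 0.13 for Cd163, -0.01 for Clec4f, -0.19 for Cd5l, -0.04 for Folr2 and -0.23 for Marco, and without NCOR_KO replicate 1 they were 0.54, 0.32, 0.40, 0.23, 0.20, 0.39 and -0.03 in the same order. Without WT replicate 2, Adgre1 was at -0.20, Cd68 at 0.06, Csf1r at -0.09, C1qa at -0.25, C1qb at 0.03 and C1qc at -0.05, and without NCOR_KO replicate 1 at 0.26, 0.48, 0.25, -0.03, 0.41 and 0.26. These shifts follow from the choice of arrays. Leaving out the lowest control array must lower each of the 13 differences, and leaving out the lowest knockout array must raise it. With both arrays out, Vsig4 differed by 0.28 and Cd68 by 0.26 (limma adjusted p = 0.263 and 0.339).

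The sign of the macrophage median turned as well. Without WT replicate 2 it was -0.04, with 5 of 13 differences above 0. Without NCOR_KO replicate 1 it was 0.26, with 11 of 13 above 0. Without either array it was 0.09, 10 of 13 were above 0, the differences ran from -0.18 to 0.28, and the median residual SD was 0.14. Leaving out the lowest array of each group tends by itself to narrow the spread. The limma test called 0 of the 13 in each of these fits.

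**Figure D2:**
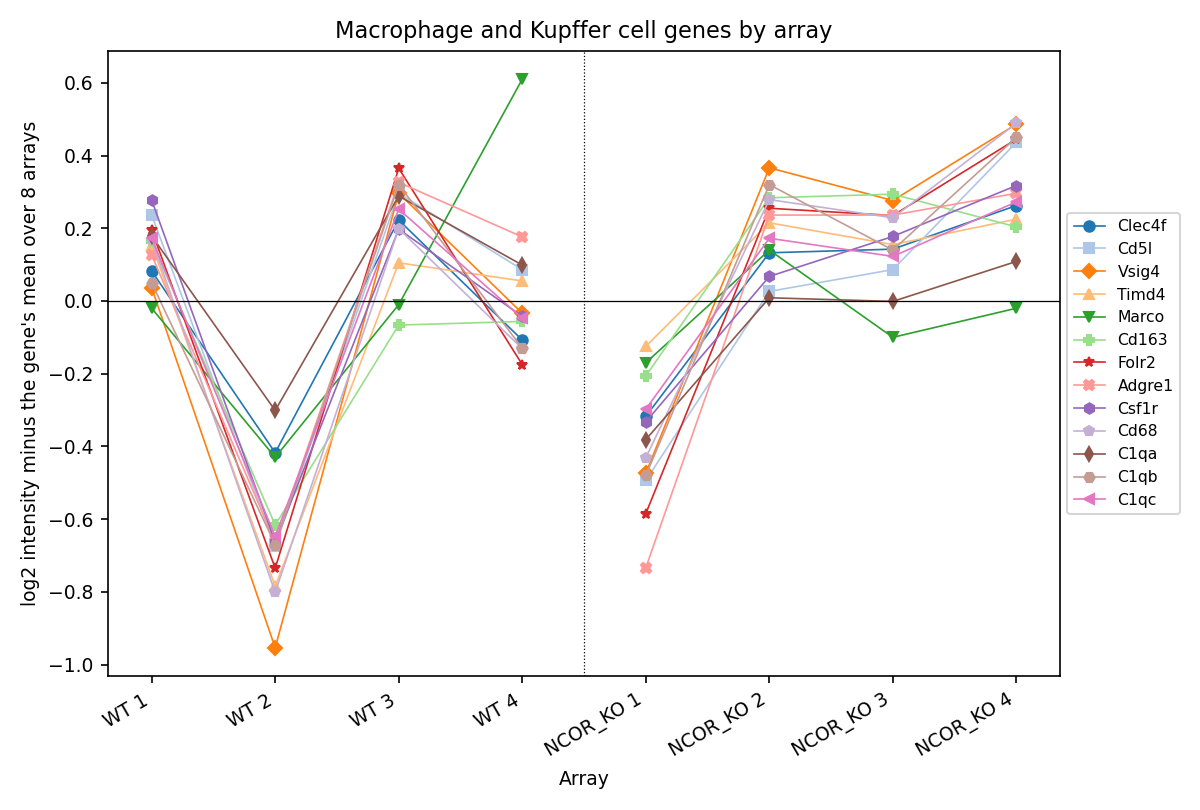
Each point is the log2 intensity of 1 of the 13 Kupffer cell and pan-macrophage genes on 1 array, minus that gene's mean over the 8 arrays; lines join the points of a gene within a group and imply no order. WT replicate 2 is the lowest control array and NCOR_KO replicate 1 the lowest knockout array for every gene, and Marco in WT replicate 4 is the highest point.

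A wider list of macrophage and Kupffer cell genes, 19 of 20 measured, had a median difference of 0.07, with 14 above 0, and the limma test called 0 (2 at an unadjusted p under 0.05). WT replicate 2 was the lowest control array for 15 of these 19 and NCOR_KO replicate 1 the lowest knockout array for 14. The largest difference was that of C6, a terminal complement component, at -0.36 (limma adjusted p = 0.232). Its values did not follow the low arrays: 11.80, 11.47, 11.27 and 11.47 in controls and 11.21, 11.39, 11.19 and 10.79 in knockouts. Nr1h3, which encodes the nuclear receptor LXR alpha and is picked out here after its values were seen, was 8.75, 8.67, 8.82 and 8.76 in controls and 8.53, 8.56, 8.63 and 8.58 in knockouts. Its groups did not overlap, as in 10.4% of all genes, and its difference of -0.18 did not pass (limma adjusted p = 0.168). The pooled SD of Nr1h3 was 0.05, beside a median of 0.36 in the 13 macrophage genes. Which liver cells gave the C6 and Nr1h3 signals was not tested.

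Genes that macrophages share with other leukocytes had the same low arrays. Ptprc encodes CD45, the phosphatase on all leukocytes, and Tyrobp and Fcer1g encode adaptors that signal for activating receptors of myeloid and NK cells. All 3 were lowest in WT replicate 2 and in NCOR_KO replicate 1. Tyrobp was 8.51, 7.67, 8.59 and 7.96 in controls and 8.02, 8.40, 8.44 and 8.60 in knockouts, a difference of 0.18 inside a pooled SD of 0.36 (limma adjusted p = 0.705). Fcer1g was 8.58, 8.03, 8.66 and 8.42 in controls and 8.24, 8.65, 8.64 and 8.91 in knockouts, a difference of 0.19 inside a pooled SD of 0.28. The groups overlapped in both genes. Ptprc differed by 0.02, and by -0.02 after median centring. Without WT replicate 2 the differences of Tyrobp, Fcer1g and Ptprc were 0.01, 0.06 and -0.08, and without NCOR_KO replicate 1 they were 0.29, 0.31 and 0.09. The limma test called 0 of the 3, and 0 had an unadjusted p under 0.05.

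None of the 5 monocyte and granulocyte genes passed the limma test (0 at an unadjusted p under 0.05), and 1 of the 5, Lyz2, was lowest in both WT replicate 2 and NCOR_KO replicate 1. Their pooled SDs were 0.07 to 0.19, and every 95% interval lay inside 1.5-fold. Lyz2, lysozyme of myeloid cells, had the largest difference. It was 9.22, 9.06, 9.21 and 9.39 in controls and 8.80, 9.02, 8.98 and 9.31 in knockouts, 0.19 lower on the log2 scale in the mean but overlapping between groups (limma adjusted p = 0.424). The difference was -0.24 without WT replicate 2 and -0.11 without NCOR_KO replicate 1. Cd14, the lipopolysaccharide co-receptor, was 5.57, 5.14, 5.63 and 5.27 in controls and 5.47, 5.73, 5.45 and 5.68 in knockouts, a difference of 0.18, and WT replicate 2 was its lowest control array. Itgam, the integrin chain CD11b, differed by 0.09, and Cx3cr1 and Ccr2, the chemokine receptors of patrolling and inflammatory monocytes, by 0.05 each. WT replicate 2, the lowest control array for the macrophage genes, was the highest control array for Cx3cr1, at 6.87 beside 6.46 to 6.60. A further 9 monocyte genes had a median difference of 0.05 and 0 calls by limma (1 at an unadjusted p under 0.05). Their mean deviation was -0.19 in WT replicate 2 and -0.18 in NCOR_KO replicate 1, which was the lowest knockout array for 6 of the 9, and 2 of the 9 were lowest in both arrays. The largest of the 9 differences was 0.23 in Ms4a6c (limma adjusted p = 0.703). Leaving out WT replicate 2 gave 0.17 for Ms4a6c, and leaving out NCOR_KO replicate 1 gave 0.50.

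Other liver cell types were read for the same arrays. Averaged over genes, the deviation from each gene's mean in WT replicate 2 was -0.66 for Kupffer cell genes, -0.62 for pan-macrophage genes, -0.23 for 10 endothelial genes, -0.11 for 10 stellate cell genes and 0.02 for 9 hepatocyte genes. In NCOR_KO replicate 1 the same means were -0.34, -0.44, 0.00, -0.11 and -0.03. Each gene's mean was taken over the 8 arrays of both groups, so a difference between the groups also enters these values. Endothelial genes were lowest in WT replicate 2 for 9 of 10, in NCOR_KO replicate 1 for 7 of 10 and in both for 6 of 10. Stellate cell genes were lowest in WT replicate 2 for 6 of 10, in NCOR_KO replicate 1 for 7 and in both for 6. Over all genes, 11.6% were lowest in both, so the low pair was not confined to macrophage genes. The endothelial differences between groups had a median of 0.22, with 9 of 10 above 0 and 0 called by limma. At an unadjusted limma p under 0.05 there were 7 of 10, or 70%, beside 15.9% of all genes. The difference exceeded the pooled SD in 8 of 10, beside 36.8% of all genes. The largest endothelial difference was that of Cdh5, the endothelial cadherin (0.30, limma adjusted p = 0.108). Whether the makeup of the tissue pieces plays a part in the macrophage values was not tested.

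**Figure D3:**
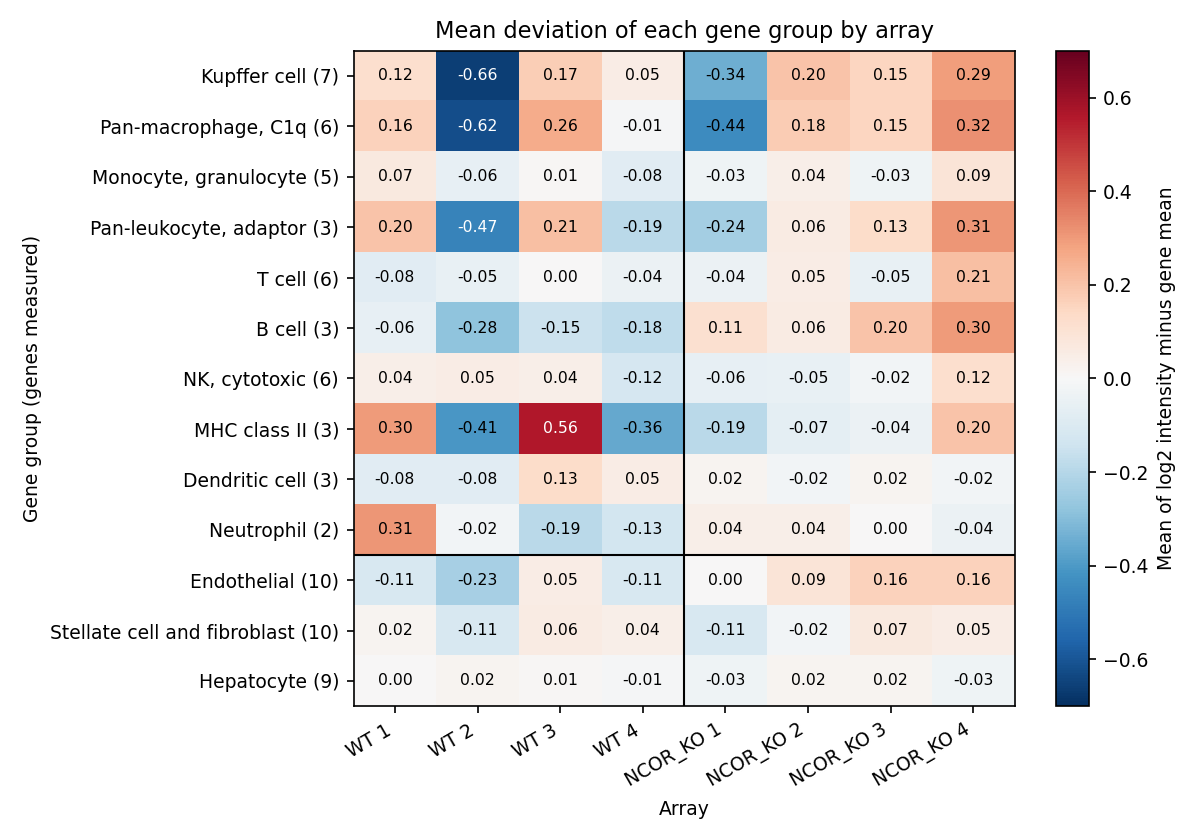
Each cell gives the mean over the genes of a group (rows, with the number measured) of log2 intensity minus the gene's mean over 8 arrays, for each array (columns); red is above and blue below the gene means. Kupffer cell and pan-macrophage genes are at -0.66 and -0.62 in WT replicate 2 and at -0.34 and -0.44 in NCOR_KO replicate 1, while hepatocyte genes stay between -0.03 and 0.02.

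MHC class II genes, which present peptides to CD4 T cells, varied more among the control livers than between the groups. H2-Ab1, which encodes a beta chain, was 8.85, 8.06, 9.26 and 8.12 in controls and 8.33, 8.32, 8.47 and 8.70 in knockouts. WT replicates 1 and 3 were high and WT replicates 2 and 4 low, with the 4 knockout arrays between them. The control range was 1.21 and the knockout range 0.38, while the difference in means was -0.12 ± 0.24 (SE, limma adjusted p = 0.851). H2-Eb1, a second beta chain, was 8.24, 7.60, 8.23 and 7.60 in controls and 7.74, 7.75, 7.74 and 7.89 in knockouts, again with 2 high and 2 low controls around the knockout values. Its ranges were 0.64 and 0.15, and its difference was -0.14 (limma adjusted p = 0.698). H2-Aa, the alpha chain, had ranges of 1.07 and 0.65 and a difference of 0.10. Without WT replicate 2 the differences of H2-Ab1, H2-Eb1 and H2-Aa were -0.29, -0.25 and -0.05, and without NCOR_KO replicate 1 they were -0.07, -0.13 and 0.21. Whether the spread itself differs between groups was not tested.

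These 3 genes are neighbours, and in all 3 WT replicates 1 and 3 lay above WT replicates 2 and 4. The limma test called 0 of the 3 and 0 had an unadjusted p under 0.05. On the probe set that Cd74 shares with a microRNA gene, values were 9.54, 8.98, 9.90 and 8.96 in controls and 9.18, 9.40, 9.38 and 9.66 in knockouts, so WT replicates 1 and 3 were high there too. RefSeq promoters on GRCm38.p6 are shown for H2-Aa, at chr17:34287824-34288073 (minus strand), and H2-Eb1, at chr17:34305617-34305866 (plus strand), because MHC class II genes carry a shared upstream module. Capitals mark GATTGG, the inverted CCAAT of its Y box, or CCAATC on the opposite strand.
H2-Aa: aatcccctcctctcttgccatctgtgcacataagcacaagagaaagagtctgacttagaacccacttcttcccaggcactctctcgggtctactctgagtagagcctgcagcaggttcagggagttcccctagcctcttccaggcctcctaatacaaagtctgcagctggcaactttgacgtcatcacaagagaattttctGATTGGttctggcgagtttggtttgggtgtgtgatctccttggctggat
H2-Eb1: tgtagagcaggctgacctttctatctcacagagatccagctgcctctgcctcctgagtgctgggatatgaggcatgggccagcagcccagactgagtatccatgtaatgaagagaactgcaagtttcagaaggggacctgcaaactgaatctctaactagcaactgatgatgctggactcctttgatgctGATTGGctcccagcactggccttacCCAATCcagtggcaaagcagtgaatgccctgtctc
H2-Aa held 1 match and H2-Eb1 2, whereas 6 of 34 immune promoters and 14.6% of all promoters held at least 1.

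Dendritic cell genes overlapped between the groups. Flt3, the receptor for the dendritic cell growth factor, was 4.41, 4.62, 4.82 and 4.58 in controls and 4.59, 4.77, 4.60 and 4.60 in knockouts. The difference was 0.03, and the control range held every knockout value. Siglech, a lectin of plasmacytoid dendritic cells, was 5.20, 5.21, 5.29 and 5.47 in controls and 5.25, 5.04, 5.21 and 5.19 in knockouts, a difference of -0.12 (limma adjusted p = 0.481). Xcr1, the chemokine receptor of cross-presenting dendritic cells, differed by 0.07. The limma test called 0 of these 3 and 0 of 11 further dendritic cell genes, with 0 in either set at an unadjusted p under 0.05. Cd209a had the largest difference of the 11, at -0.24 (limma adjusted p = 0.332).

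B cell genes had the largest median difference of the 10 lineages, 0.41, with 1 of 3 past the threshold, beside 1.65% of all genes. By limma, 2 of the 3 had an unadjusted p under 0.05, beside 15.9% of all genes. Cd79a encodes Ig-alpha, which with Ig-beta forms the signalling part of the B cell receptor. Its values were 5.05, 5.22, 5.06 and 5.00 in controls and 5.45, 5.43, 5.59 and 5.50 in knockouts. Every knockout value lay above every control value, an ordering in this direction that 4.9% of all genes showed. The means were 5.08 ± 0.09 and 5.49 ± 0.07 (SD, n = 4), a difference of 0.41 ± 0.07 (SE) or 1.33-fold, which passed with a limma adjusted p of 0.0173 (unadjusted p = 1.02e-04). The difference was 4.83 times the pooled SD of 0.08. The call was lost without WT replicate 1 (limma adjusted p = 0.0538), WT replicate 4 (0.0573) or NCOR_KO replicate 3 (0.0519), with log2 differences of 0.38 to 0.40.

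Cd79b encodes Ig-beta, the partner of Ig-alpha. It was 5.86, 5.20, 5.69 and 5.51 in controls and 5.98, 5.91, 6.08 and 6.29 in knockouts, again without overlap between the groups. The difference, 0.50 ± 0.13 (SE) or 1.41-fold, was the largest of all 44 immune genes, but the control spread was wider than for Cd79a and the gene did not pass (limma adjusted p = 0.101). It passed in 0 of 16 alternative fits, with adjusted p-values of 0.0747 to 0.194. Ms4a1, which encodes CD20, differed by 0.10 (limma adjusted p = 0.521), and its groups overlapped, at 4.14 to 4.35 and 4.26 to 4.49.

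None of the other B and plasma cell genes passed the test. Of 11 measured, limma called 0 (1 at an unadjusted p under 0.05), 6 were above 0 and 5 below, and the median was 0.05. The difference exceeded the pooled SD in 5 of the 11, or 45.5%, beside 36.8% of all genes. Bank1, a scaffold of B cell receptor signalling, had the largest difference, 0.31 (limma adjusted p = 0.480). It was 6.95, 5.98, 6.77 and 6.48 in controls and 6.47, 6.91, 7.03 and 6.99 in knockouts, so the groups overlapped, and the difference was 0.12 without WT replicate 2 and 0.43 without NCOR_KO replicate 1. Pax5, the B cell identity factor, differed by -0.04 and Ighm, the immunoglobulin heavy chain of IgM, by -0.08 (-0.25 without WT replicate 2 and 0.02 without NCOR_KO replicate 1). Pax5 and Ighm are picked out after their values were seen, as are Blk (0.21), Fcrla (0.19), Mzb1 (0.17) and Pou2af1 (0.15).

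T cell genes were led by Cd3e, which encodes the epsilon chain of CD3, the signalling complex of the T cell receptor. Limma called 1 of the 6 T cell genes, beside 1.65% of all genes. An unadjusted p under 0.05 was found for 2 of the 6, beside 15.9% of all genes. Cd3e was 5.36, 5.74, 5.45 and 5.72 in controls and 6.06, 6.10, 5.98 and 5.99 in knockouts. The knockout arrays were close together and all above the control arrays. The means were 5.57 ± 0.19 and 6.03 ± 0.06 (SD, n = 4), a difference of 0.47 ± 0.09 (SE) or 1.38-fold, with a limma adjusted p of 0.0373 (unadjusted p = 4.19e-04). The call was lost in 10 of 16 alternative fits, whose log2 differences over all 16 stayed between 0.40 and 0.53. Among those were quantile normalization (limma adjusted p = 0.0656), median centring (0.0608), the fits without WT replicate 1 (0.0771) or 3 (0.0906), those without NCOR_KO replicate 1 (0.0916), 2 (0.116), 3 (0.0737) or 4 (0.0693), and the fit without both low arrays (0.0580).

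The partner chains of CD3 did not pass. Cd3d was 4.98, 4.97, 4.84 and 5.16 in controls and 5.10, 4.98, 5.04 and 5.20 in knockouts, a difference of 0.09 with a 95% interval of -0.08 to 0.27. Cd3g was 5.51, 5.02, 5.37 and 5.25 in controls and 5.07, 5.18, 5.06 and 5.66 in knockouts, a difference of -0.04 with an interval of -0.36 to 0.27. The interval for Cd3e, 0.26 to 0.67, met that of Cd3d and of Cd3g only at its lower end, and a difference between the chains was not tested. The 3 chain genes are neighbours.

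**Figure D4:**
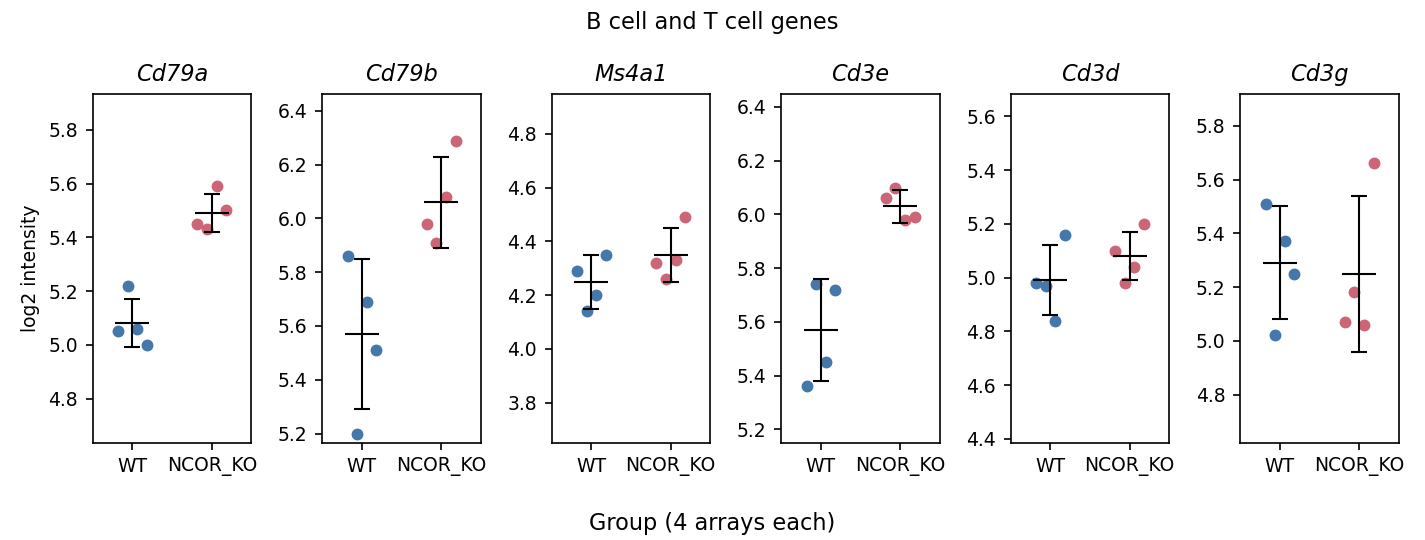
log2 intensity of 3 B cell genes and 3 T cell genes in the 4 WT (blue) and 4 NCOR_KO (red) arrays; points are arrays, bars the mean and SD, and each panel spans the same log2 range around its own centre. Knockout points lie above all control points in Cd79a, Cd79b and Cd3e and overlap them in Ms4a1, Cd3d and Cd3g.

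The co-receptors that divide T cells into classes differed in sign. Cd4, of helper T cells and in mouse also of some dendritic cells, was 5.30, 5.61, 5.88 and 5.25 in controls and 5.18, 5.21, 4.94 and 5.54 in knockouts. Its mean was 0.30 lower in knockout liver on the log2 scale, the lowest difference of the 44 genes, with overlapping groups and a limma adjusted p of 0.378. Cd8a and Cd8b1, the chains of the co-receptor of cytotoxic T cells, differed by 0.18 (limma adjusted p = 0.299) and 0.11 (0.516). Cd8a was 4.93, 4.88, 4.76 and 4.85 in controls and 4.87, 5.07, 4.99 and 5.21 in knockouts, with NCOR_KO replicate 1 inside the control range.

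Of 12 further T cell genes limma called 0 (1 at an unadjusted p under 0.05), and the median difference was 0.01. The largest was that of Il7r, the receptor for the survival factor IL-7, at 0.39 (limma adjusted p = 0.323), where the groups overlapped. Zap70, the kinase that docks on the CD3 chains, is picked out after its values were seen. It ran from 5.85 to 6.22 in controls and from 5.76 to 5.83 in knockouts. All knockout values lay below all control values, opposite in sign to Cd3e, and the difference of -0.27 did not pass (limma adjusted p = 0.136).

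The RefSeq promoters of Cd79a, at chr7:24897247-24897496 (plus strand), and Cd3e, at chr9:45009612-45009861 (minus strand), are shown because these were the 2 immune genes past the threshold. They were searched for the same PU.1 core (GAGGAA or, on the opposite strand, TTCCTC, in capitals), since PU.1 also acts in B cells, and, on both strands, for the EBF palindrome, recognised by the B cell factor EBF1.
Cd79a: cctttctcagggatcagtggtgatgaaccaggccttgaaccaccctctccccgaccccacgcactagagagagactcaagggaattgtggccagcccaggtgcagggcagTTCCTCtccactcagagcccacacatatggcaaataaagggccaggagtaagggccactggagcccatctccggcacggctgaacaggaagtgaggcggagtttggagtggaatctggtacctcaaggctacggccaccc
Cd3e: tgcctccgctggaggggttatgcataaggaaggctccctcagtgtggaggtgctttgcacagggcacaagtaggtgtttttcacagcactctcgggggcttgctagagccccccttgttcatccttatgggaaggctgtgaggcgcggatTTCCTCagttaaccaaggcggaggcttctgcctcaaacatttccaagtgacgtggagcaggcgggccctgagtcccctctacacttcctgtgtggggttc
Each held 1 match to the PU.1 core. A full match to the EBF palindrome was in 0 of 34 immune promoters and in 0.779% of all promoters. Sites that depart from the palindrome were not searched for, so the 0 does not show that Cd79a lacks an EBF1 site. No 2 matches overlapped in the 7 promoters shown.

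No NK cell or cytotoxic gene passed the test. The limma test called 0 of the 6, 0 had an unadjusted p under 0.05, and every 95% interval lay inside 1.5-fold. The median difference was -0.02. Gzma, granzyme A, was 3.56, 3.95, 3.56 and 3.76 in controls and 3.75, 3.90, 3.76 and 4.16 in knockouts, a difference of 0.19 (limma adjusted p = 0.461). Gzmb, granzyme B, was 4.62, 4.70, 4.60 and 4.13 in controls and 4.26, 4.44, 4.34 and 4.59 in knockouts, a difference of -0.11 with 1 low control array. The 2 granzymes thus lay on opposite sides of 0, each with overlapping groups. The NK receptors Klrk1 (NKG2D), Ncr1 (NKp46) and Klrb1c (NK1.1) differed by -0.15, -0.03 and -0.01, and Nkg7, a granule protein, by 0.09. Among 11 further NK and cytotoxic genes, limma called 0 (1 at an unadjusted p under 0.05). The largest difference was in Prf1, which encodes perforin, the pore protein of cytotoxic granules. It was 6.26, 6.14, 6.37 and 6.35 in controls and 6.38, 6.51, 6.65 and 6.58 in knockouts, and its groups did not overlap, yet the difference of 0.25 did not pass (limma adjusted p = 0.145).

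S100a8 and S100a9 encode the paired calcium-binding proteins of neutrophils. S100a9 was 4.69, 4.34, 4.26 and 4.21 in controls and 4.62, 4.57, 4.42 and 4.32 in knockouts, a difference of 0.11 (limma adjusted p = 0.679). S100a8 was 3.83, 3.51, 3.25 and 3.42 in controls and 3.35, 3.40, 3.47 and 3.49 in knockouts, a difference of -0.08. WT replicate 1 was the highest control array for both, and the groups overlapped in both. Limma called 0 of the 2, and 0 of 10 further neutrophil genes (0 and 1 at an unadjusted p under 0.05). The collagenase gene Mmp8 had the largest difference of the 10, -0.18 (limma adjusted p = 0.204). Mast cell and basophil genes (6 measured), platelet genes (4 of 5) and red cell genes (1 of 8) also had 0 calls by limma (0, 1 and 0 at an unadjusted p under 0.05). Their largest differences were -0.11 in Mcpt4, 0.33 in Itga2b and -0.03 in Slc4a1.

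Chemokines and growth factors that recruit or maintain these cells were read beside them. Limma called 1 of 27 measured, Cxcl1, as lower. At an unadjusted p under 0.05 there were 5 of the 27, or 18.5%, beside 15.9% of all genes. The groups did not overlap in 3 of the 27, and in 10.4% of all genes. Cxcl1, a neutrophil attractant, was 6.85, 6.58, 6.12 and 5.94 in controls and 5.43, 5.43, 5.52 and 5.51 in knockouts. The control arrays spread over 0.91, the knockout arrays over 0.09, and the groups did not overlap. The means were 6.37 ± 0.42 and 5.47 ± 0.05 (SD, n = 4), a fall of 1.87-fold (log2 difference -0.90 ± 0.17 SE, limma adjusted p = 0.0306). The call was lost without WT replicate 2 (limma adjusted p = 0.0596), without NCOR_KO replicate 1 (0.0783), 2 (0.0962), 3 (0.0691) or 4 (0.0620), and without both low arrays (0.110), at log2 differences of -0.92 to -0.82. Neutrophil genes, as given above, had 0 calls.

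The remaining 26 chemokine and growth factor genes did not pass. The median of the 27 differences was 0.05, with 18 above 0. The following are picked out for their receptors among the immune genes or after their values were seen. The ligands of Csf1r differed by 0.02 (Csf1) and -0.05 (Il34), and Ccl2, the ligand of Ccr2, by 0.09. Il15, the growth factor of NK cells, was 6.05, 6.19, 6.45 and 5.94 in controls and 5.66, 5.73, 5.78 and 5.87 in knockouts, without overlap, and did not pass (-0.40, limma adjusted p = 0.0893). Cxcl13, which attracts B cells, had the largest positive difference of the list, 0.64 ± 0.27 (SE, limma adjusted p = 0.274). It was 9.36, 8.14, 8.94 and 8.97 in controls and 8.80, 9.82, 9.68 and 9.68 in knockouts, where WT replicate 2 and NCOR_KO replicate 1 were again the lowest of their groups. The difference was 0.41 without WT replicate 2 (limma adjusted p = 0.430), 0.88 without NCOR_KO replicate 1 (0.131) and 0.64 without both, where it passed (0.0443). That last fit was added after the data were seen. Leaving out the lowest array of each group tends by itself to narrow the spread, so this pass is not counted as a call.

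Set against the spread inside the groups, the immune genes had small group differences. The median pooled SD of the 44 was 0.22, beside 0.11 over all genes, and the median range over 4 arrays was 0.58 in controls and 0.35 in knockouts, beside 0.24 and 0.22 over all genes. The difference exceeded the pooled SD in 10 of the 44, or 22.7%, beside 36.8% of all genes. These 10 were Cd3e, Cd4, Cd8a, Cd8b1, Cd79a, Cd79b, Ms4a1, Klrk1, Lyz2 and Siglech. They held 8 of the 15 T, B and NK cell genes, or 53.3%, and 0 of the 13 macrophage genes. Of the 15, 14 were below the median level, and the share over all genes below that level was 29.3%. The groups did not overlap in 3 of the 44 (Cd3e, Cd79a and Cd79b), and in 10.4% of all genes. For 31 of the 44, or 70.5%, the 95% interval lay within 1.5-fold either way. The 13 others were 7 macrophage genes, Tyrobp, H2-Aa, H2-Ab1, Cd4, Cd3e and Cd79b.

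**Figure D5:**
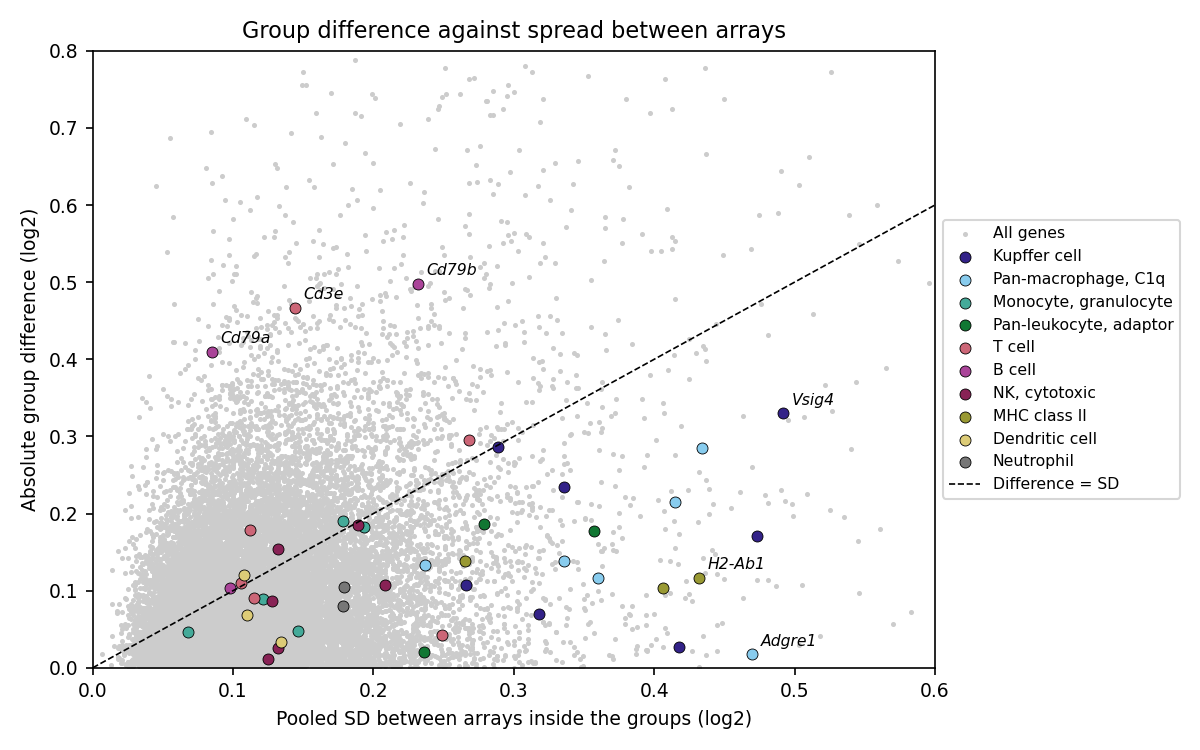
Absolute difference between the group means (vertical axis, log2) against the pooled SD between arrays inside the groups (horizontal axis, log2) for all genes (grey) and the 44 immune genes by lineage (coloured); the dashed line marks equality, and 119 of 22180 genes lie outside the axes. Cd79a, Cd3e and Cd79b lie well above the line, and all 13 macrophage genes lie below it, between SDs of 0.24 and 0.49.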

How the data were processed

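Total RNA of 8 livers, 4 per group, was hybridised to 1-colour Affymetrix arrays; groups and replicate numbers come from the sample titles. The authors deposited linear intensities per probe set. RMA and Partek are named, without versions, in the submitters' processing notes, and the sources used here give no background settings, filters or build of the annotation. Log2 was taken of the deposited intensities, with no further normalization and no filter on dim genes.

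Of 41345 probe sets, 25335 were annotated to a gene and 1814 of these to several, which were left out. The 23521 others gave 22180 genes after keeping the brightest probe set per gene. The group test used limma 3.58.1 under R 4.3.3, by lmFit and eBayes with Benjamini-Hochberg adjustment over all genes, after the steps were tested on simulated data. Figures were drawn with matplotlib 3.10.9.

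The immune genes, the 15 further lists (156 of 175 genes measured) and the motifs were chosen with earlier results of these data known. Any immune gene could be named. Values in every array were due for those past the threshold and for the largest difference and the largest pooled SD of each lineage. Each further list was represented by up to 4 genes past the threshold, or else by its largest difference. Alternatives were quantile normalization, median centring, array weights, trend and robust variance, brighter genes only, the mean of probe sets, single probe sets, other thresholds, a replicate block and leaving out single arrays. The fit without both low arrays (WT replicate 2, NCOR_KO replicate 1) was added after the data were seen. RefSeq promoters (GRCm38.p6) matched 34 of the 45 genes.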

Additional observations from a re-analysis of the deposited data

Results flagged for a closer look

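In 118 groups of 4 arrays, 88 of them of the immune genes, 9 had a highest or lowest array whose gap to the nearest array exceeded Dixon's 95% critical share of the group's range, which chance gives in about 1 of 20 groups. The value in parentheses is that gap divided by the range.

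Timd4, the phosphatidylserine receptor of Kupffer cells, was low in WT replicate 2, at 6.68 against 7.52 to 7.62 in the other control arrays (0.892). Adgre1, which encodes F4/80, was low in NCOR_KO replicate 1, at 7.39 against 8.36 to 8.42 (0.936), and Cd163 was low there too, at 7.95 against 8.36 to 8.45 (0.831). These are macrophage genes and the arrays are the pair that was lowest for all 13 of them.

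Klrb1c was high in WT replicate 1, at 4.54 against 4.21 to 4.23 (0.92). Ncr1 was low in NCOR_KO replicate 2, at 4.71 against 4.98 to 5.02 (0.883), and Flt3 was high there, at 4.77 against 4.59 to 4.60 (0.952). H2-Eb1 was high in NCOR_KO replicate 4, at 7.89 against 7.74 to 7.75 (0.955). Among the further genes, Mmp8 was low in NCOR_KO replicate 2, at 4.64 against 4.75 to 4.77 (0.867), and Mcpt4 in NCOR_KO replicate 1, at 2.99 against 3.20 to 3.23 (0.864).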

How the results depend on the processing

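The count of genes called by limma, 366, was 551 with only brighter genes, 155 with the replicate block, 88 and 807 at thresholds of 0.01 and 0.1, 202 without both low arrays, and 120 to 297 without single arrays. With median centring 147 genes were higher and 383 lower. Of the immune genes, 2 were called. The count was 1 with quantile normalization, median centring or without both low arrays, 0 with the replicate block, at a threshold of 0.01 or with brighter genes only, where Cd79a and Cd3e were too dim to be tested, and 0 to 2 without single arrays (0 without WT replicate 1 and without NCOR_KO replicate 3). The median immune difference, 0.09, stayed between 0.01 and 0.13. No pairing by replicate number was seen, and the titles state none: the correlations of the deviations were -0.0935, 0.00699, 0.0167 and -0.0643. With the replicate block the calls of Cd79a (limma adjusted p = 0.0698), Cd3e (0.0696), Cxcl1 (0.0613) and Epcam (0.129) were lost. Epcam, the 1 of 6 cholangiocyte genes called (0.41, limma adjusted p = 0.0452), passed in 7 of 17 alternatives. Signs turned for uncalled genes alone. Cd5l was -0.02 with centring, -0.06 with array weights and -0.02 without both low arrays; Adgre1 was -0.03 with centring and with weights; Ptprc was -0.02 in all 3. Flt3 was 0.00 with quantile normalization and -0.01 with centring, and without both low arrays Gzmb was 0.01 and Xcr1 -0.01. Without single arrays the ranges were -0.01 to 0.23 for Clec4f, -0.19 to 0.20 for Cd5l, -0.23 to 0.12 for Marco, -0.04 to 0.39 for Folr2, -0.20 to 0.26 for Adgre1, -0.09 to 0.25 for Csf1r, -0.05 to 0.26 for C1qc, 0.00 to 0.14 for Cx3cr1, -0.08 to 0.12 for Ptprc, -0.18 to 0.03 for Cd3g, -0.04 to 0.07 for Klrb1c, -0.07 to 0.05 for Ncr1, -0.05 to 0.31 for H2-Aa, -0.29 to 0.11 for H2-Ab1, -0.03 to 0.11 for Flt3, -0.16 to 0.03 for S100a8 and -0.08 to 0.02 for Slc4a1. The cause of these changes was not tested.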

Other observations

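Genes of cholangiocytes, the cells that line the bile ducts, were read beside the immune genes. Of 6 measured, Epcam, the epithelial adhesion molecule, was the 1 called by limma, beside 1.65% of all genes. It was 5.92, 5.72, 5.96 and 5.70 in controls and 6.10, 6.40, 6.18 and 6.26 in knockouts, without overlap, a difference of 0.41 ± 0.09 (SE, limma adjusted p = 0.0452). All 6 differences were above 0, with a median of 0.23. By limma, 3 of the 6, or 50%, had an unadjusted p under 0.05, beside 15.9% of all genes. The difference exceeded the pooled SD in 5 of the 6, beside 36.8% of all genes. Stellate cell and fibroblast genes had 0 of 10 called by limma (0 at an unadjusted p under 0.05), and the largest difference was -0.36 in Lrat (limma adjusted p = 0.388). Among hepatocyte genes the largest was -0.12 in Serpina1a (limma adjusted p = 0.340).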
